A study of Homo sapiens with 12 samples.

Results

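The genes described here take part in tryptophan breakdown, or belong to the aryl hydrocarbon receptor pathway that tryptophan breakdown products feed. They are IDO1, TDO2, IL4I1, KYNU, KMO, WARS1, AHR, AHRR and CYP1B1, which is 9 of the 19775 genes with a probe set naming 1 gene symbol. The genes were chosen by name, as a biological family, with earlier results of these data known. Each was read from its probe set with the highest mean log2(signal + 62.5) over the 12 arrays. All 9 passed the filter on low signal, a mean log2 value of at least 7.85, which corresponds to a signal of 168.9. CYP1B1 lay nearest to the filter, with a mean log2 value of 8.15. In all, 13959 genes passed.

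The cells were U937, an established human line of myeloid blasts, electroporated with a pEGFP plasmid and sorted for green fluorescence before RNA was taken. The plasmid carried GFP alone (GFP), GFP joined to wild-type PML-RARA (PRWT), the fusion protein of acute promyelocytic leukaemia, or GFP joined to PR2VR. PR2VR was taken to be the protease-resistant PML-RARA in the series title, although its label also calls the insert wild type. RNA was taken at 6 h or 9 h, with 2 arrays per construct and hour, 4 per construct and 8 of a fusion. All groups share the U937 host, the plasmid backbone and the GFP sort, and the fusion was present only transiently. The titles count hours after transfection for GFP and after infection for the fusions, a wording difference that coincides with the main comparison. The labels do not say that replicates came from separate electroporations, so the p-values cover only the variation among these arrays, part or all of which may be technical.

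Tryptophan is broken down mainly along the kynurenine pathway. IDO1 and TDO2 open the indole ring, and KMO and KYNU process the kynurenine that follows. IL4I1 is a secreted oxidase that converts aromatic amino acids, tryptophan included, to keto acids. Kynurenine and products of the IL4I1 reaction are known ligands of AHR, a transcription factor that induces its own repressor AHRR and the cytochrome CYP1B1. WARS1 charges tryptophan onto its tRNA and, like IDO1, is a classical target of interferon gamma in monocytic cells.

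RefSeq promoter windows (GRCh38.p14, 250 bases before the annotated start and 50 from it) were found for 7 of the 9 genes, 9 windows in all, and none was matched for IDO1 and CYP1B1. The windows of WARS1 and IL4I1 are shown because these genes had lower signal in both fusions. Capitals mark matches, on either strand, to the core of the interferon-stimulated response element (GAAANNGAA) and to the interferon gamma activated site (TTCNNNGAA), and the marked matches do not overlap. The sequences run 5′ to 3′ on the gene's strand, from chr14:100375298-100375597 (minus), chr14:100376278-100376577 (minus) and chr19:49929455-49929754 (minus).
WARS1, downstream start: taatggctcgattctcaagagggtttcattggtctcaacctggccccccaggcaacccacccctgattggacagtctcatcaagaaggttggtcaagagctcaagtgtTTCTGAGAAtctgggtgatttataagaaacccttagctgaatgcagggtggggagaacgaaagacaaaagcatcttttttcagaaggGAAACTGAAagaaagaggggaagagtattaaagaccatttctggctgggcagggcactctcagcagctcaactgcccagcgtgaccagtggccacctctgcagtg
WARS1, upstream start: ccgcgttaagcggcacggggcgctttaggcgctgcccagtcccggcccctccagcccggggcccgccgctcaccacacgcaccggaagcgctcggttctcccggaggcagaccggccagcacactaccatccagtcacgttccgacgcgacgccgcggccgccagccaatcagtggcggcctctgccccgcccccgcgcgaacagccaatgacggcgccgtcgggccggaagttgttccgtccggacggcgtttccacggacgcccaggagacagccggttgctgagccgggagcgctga
IL4I1: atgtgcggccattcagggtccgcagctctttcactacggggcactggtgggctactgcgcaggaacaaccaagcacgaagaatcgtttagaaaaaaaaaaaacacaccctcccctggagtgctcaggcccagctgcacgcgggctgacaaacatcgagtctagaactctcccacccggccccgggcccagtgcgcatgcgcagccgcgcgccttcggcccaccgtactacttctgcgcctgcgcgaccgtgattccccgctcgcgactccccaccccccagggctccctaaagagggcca

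The window of the downstream WARS1 start held 1 match to each of the interferon motifs, GAAACTGAA beginning 55 bases before the start and TTCTGAGAA beginning 142 bases before it. The window of the upstream WARS1 start and that of IL4I1 held neither. KYNU (chr2:142877414-142877713, plus strand) held 2 matches to TTCNNNGAA, and the windows of KMO, TDO2, AHR and AHRR held no match to either. Among 35116 RefSeq promoters, 8.11% held GAAANNGAA and 7.66% held TTCNNNGAA. The core of the AHR response element, GCGTG, was present in windows of WARS1, IL4I1, AHR and AHRR, and in 36.5% of all promoters. The nuclear receptor half-site AGGTCA was present in windows of TDO2 and AHRR, and in 13.8% of all promoters. These matches describe letters in the windows and were not tested for binding.

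The deposited values are MAS5 signals, a linear array intensity that the authors' processing had scaled so that the trimmed mean of every array was 1500.2. RARA, part of the fusion, had signals of 48.2 to 309 on the GFP arrays, 11971 to 58985 on the PRWT arrays and 9281 to 41097 on the PR2VR arrays. The 3 arrays of 9 h number 2 stood apart on the first principal component (59.8 to 77.7, against -36.4 to -7.31 on the other 9) and had lower 3′ to 5′ ratios of GAPDH (2.21 to 2.75, against 3.82 to 12.9). The myeloid marker CTSG had signals of 16939 to 136652, LYZ of 3294 to 21336 and PTPRC of 16411 to 46039 over the 12 arrays. Of 12 markers of U937 and myeloid cells with a probe set, 11 passed the filter. SPI1 did not, with 17.2 to 536.1, and MPO and ITGAX passed with only 56.7 to 582.3 and 70.9 to 1007. Signal of a mixed RNA extract cannot tell fewer expressing cells from less RNA per cell.

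**Figure D1:**
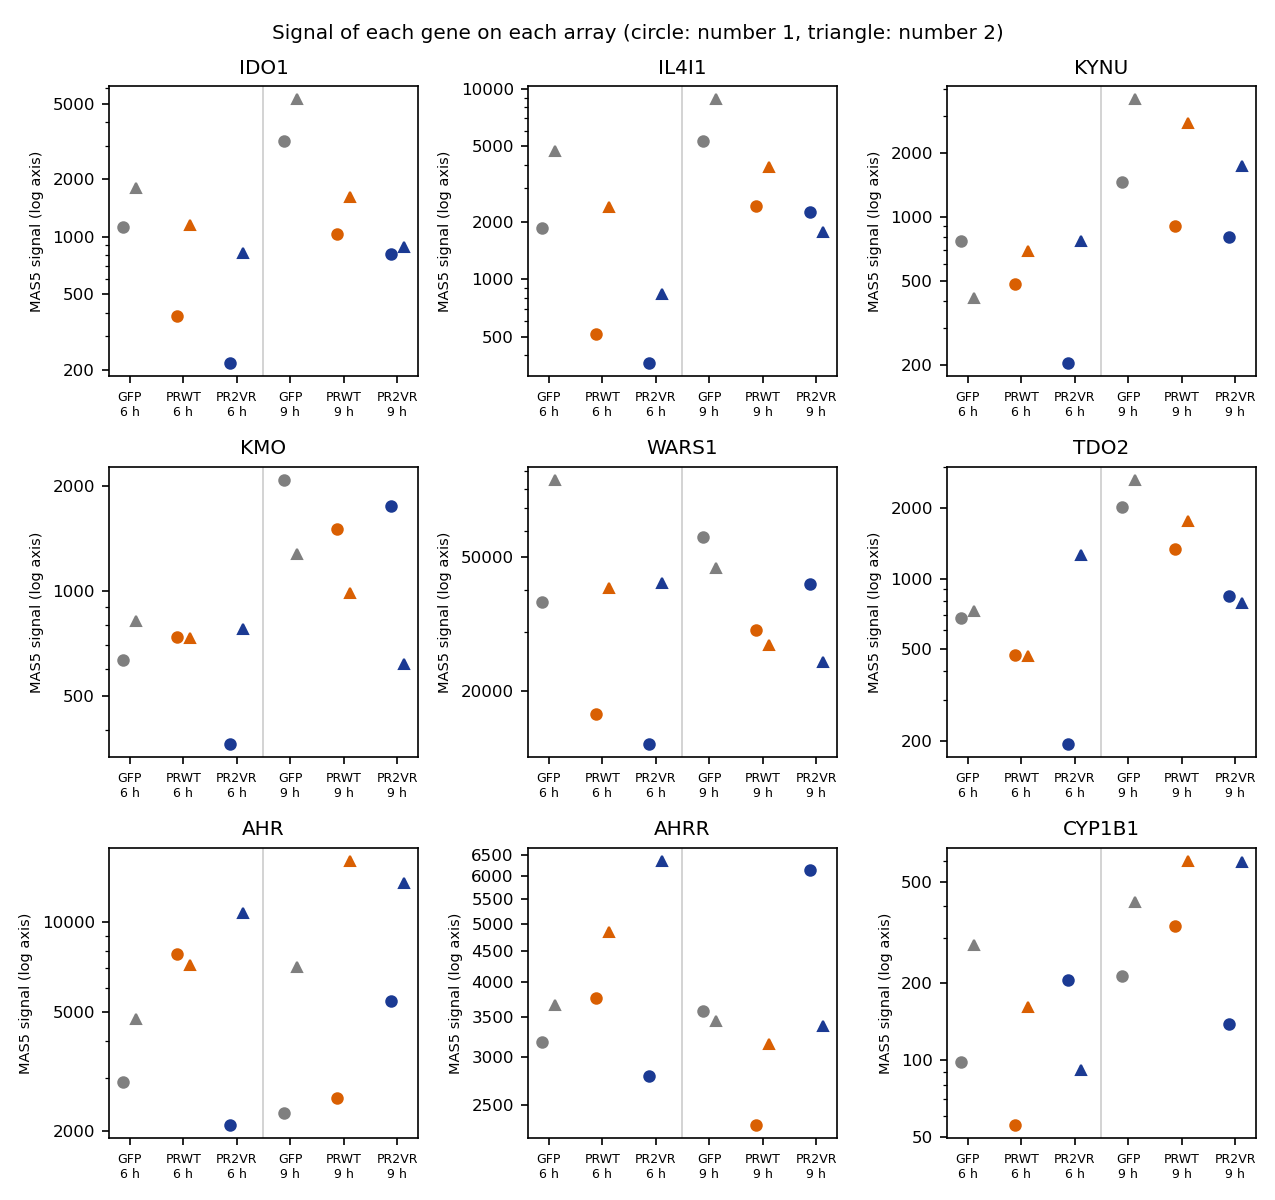
MAS5 signal (log axis, 1 scale per panel) of the 9 genes on each of the 12 arrays, by construct and hour; circles are number 1 and triangles number 2. At 9 h the GFP points of IDO1, IL4I1, WARS1 and TDO2 lie above all 4 fusion points, and at 6 h no gene has all 4 fusion points on 1 side of both GFP points.

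IDO1, IL4I1 and WARS1 had lower signal in cells with either fusion than in cells with GFP alone. Over both hours and both fusions, IDO1 was 3.03-fold lower, IL4I1 3.09-fold lower and WARS1 1.93-fold lower. These 3 genes passed a test across all genes only when arrays of the same hour and number were treated as a block. Without the block none of the 9 passed, and the blocked calls depended on single arrays. The other 6 genes did not pass for the fusions against GFP in either fit, and the probe sets of KYNU and of KMO disagreed in sign. The lower IDO1 and IL4I1 signals were already known when the genes were chosen. WARS1 and the other members were also chosen with earlier results of these data known. The p-values of all these genes are therefore no independent support.

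IDO1 (probe set 210029_at), the interferon-inducible enzyme that opens the indole ring, gave signals of 1126 and 1799 in GFP cells at 6 h and 3195 and 5269 at 9 h. In PRWT cells its signals were 385 and 1146 at 6 h and 1034 and 1617 at 9 h. In PR2VR cells they were 217 and 823 at 6 h and 816 and 884.5 at 9 h. All 4 fusion arrays at 9 h were below both GFP arrays, whereas at 6 h the second PRWT array slightly exceeded the lower GFP array. Ordered by mean log2 signal, the groups ran PR2VR 6 h, PRWT 6 h, PR2VR 9 h, PRWT 9 h, GFP 6 h and GFP 9 h. Neighbours in that order overlapped in their 2 signals except PR2VR 9 h and PRWT 9 h, and GFP 9 h lay above every other group.

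IL4I1 (230966_at) gave signals of 1854 and 4710.3 in GFP cells at 6 h and 5310 and 8838 at 9 h. PRWT cells gave 515 and 2407 at 6 h and 2440.4 and 3870 at 9 h. PR2VR cells gave 363 and 838 at 6 h and 2247 and 1780.1 at 9 h. Both 6 h PR2VR arrays and the first 6 h PRWT array were below all 4 GFP arrays, and the second 6 h PRWT array lay inside the GFP range. At 9 h the GFP arrays were above all 4 fusion arrays. A further probe set that names both IL4I1 and NUP62 was left out.

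WARS1 (200629_at), the tryptophanyl-tRNA synthetase, gave 36691 and 84735.5 in GFP cells at 6 h and 57381 and 46405 at 9 h. PRWT cells gave 17156 and 40394 at 6 h and 30433 and 27471 at 9 h. PR2VR cells gave 13918 and 41999.5 at 6 h and 41741 and 24469 at 9 h. Within each hour and number the GFP array was the highest of its 3 arrays, although the second fusion arrays at 6 h exceeded the first GFP array of that hour. The other WARS1 probe set, 200628_s_at, gave a log2 difference of -0.93 ± 0.17 (SE) between both fusions and GFP, which did not pass with the block and all probe sets tested (adjusted p = 0.065), where 200629_at did (adjusted p = 0.034).

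The differences were tested with limma, a linear model with variances moderated across genes, on log2(signal + 62.5) over 13959 genes, with a threshold of 0.05 on the Benjamini-Hochberg adjusted p. The offset understates changes of weak genes. Arrays of the same hour and number deviated together at 9 h and weakly at 6 h, so the fit was also made with these 4 sets of 3 arrays as a block. Without the block, the fusions differed from GFP by -1.60 ± 0.37 for IDO1 (log2, SE, adjusted p = 0.52), by -1.63 ± 0.41 for IL4I1 (adjusted p = 0.65) and by -0.95 ± 0.35 for WARS1 (adjusted p = 1). None of the 9 genes was called, against 0.00716% of all genes, which is RARA alone. Unadjusted p was under 0.05 for 439 genes, among them 3 of the 9, where 698 genes would be expected by chance.

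With the set as a block, the same differences had smaller errors and 3 of the 9 genes were called lower, against 0.186% of all genes. IDO1 differed by -1.60 ± 0.22 (adjusted p = 0.018, 95% interval -2.08 to -1.12) and was lower in 4 of 4 sets. IL4I1 differed by -1.63 ± 0.23 (adjusted p = 0.018, interval -2.13 to -1.13) and was lower in 4 of 4 sets. WARS1 differed by -0.95 ± 0.15 (adjusted p = 0.032, interval -1.28 to -0.63) and was also lower in 4 of 4. The median difference of the 9 genes was -0.45, beside -0.02 over all genes tested.

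The calls depended on single arrays while the sizes moved little. With the block and 1 array left out, IDO1 and IL4I1 stayed called in 3 of 12 fits, namely without PRWT 6 h number 2, PR2VR 6 h number 1 or PR2VR 6 h number 2, and WARS1 in 2 of 12, without either PR2VR 6 h array. Leaving out any other single array ended each call, with differences of -1.83 to -1.38 for IDO1, -1.77 to -1.49 for IL4I1 and -1.02 to -0.88 for WARS1 over the 12 fits. Without the 3 arrays of 9 h number 2 the differences were -1.51, -1.49 and -0.91, and the adjusted p values 0.85, 0.80 and 0.93.

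**Figure D2:**
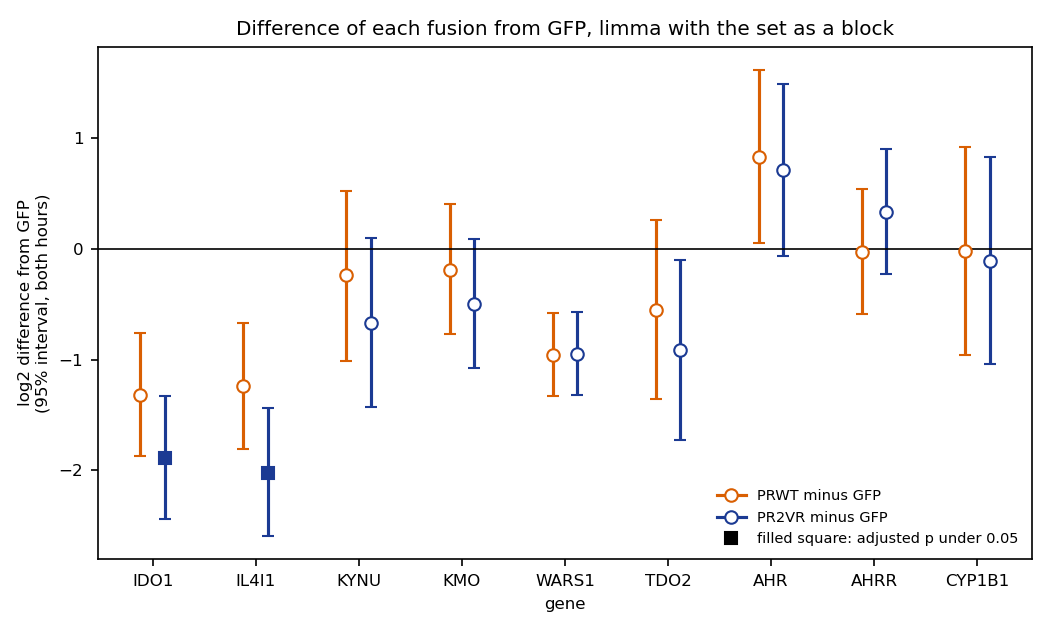
Difference of PRWT and of PR2VR from GFP for each gene (log2, both hours, limma with the set as a block, 4 arrays per construct); bars are 95% intervals and filled squares have an adjusted p under 0.05. IDO1 and IL4I1 in PR2VR are the filled squares, and the intervals of WARS1 lie below 0 for both fusions.

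By fusion, PR2VR gave the lower values for IDO1 and IL4I1. With the block, PR2VR cells differed from GFP by -1.89 ± 0.25 for IDO1 (3.70-fold lower, adjusted p = 0.016) and by -2.02 ± 0.26 for IL4I1 (4.05-fold lower, adjusted p = 0.015). These were 2 of the 9 genes called lower, against 0.143% of all genes, and WARS1 at -0.95 ± 0.17 missed the threshold (adjusted p = 0.053). PRWT cells differed by -1.32 ± 0.25 for IDO1 (adjusted p = 0.16), -1.24 ± 0.26 for IL4I1 (adjusted p = 0.25) and -0.96 ± 0.17 for WARS1 (adjusted p = 0.13). None of the 9 was called in PRWT, where 0% of all genes were called lower. Without the block none of the 9 was called for PRWT or for PR2VR, and 0.00716% of all genes was called in each. With 1 array left out, the PR2VR calls of IDO1 and IL4I1 were kept without any 1 of the 4 fusion arrays at 6 h and lost without any other array.

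The direct comparison of PR2VR with PRWT called none of the 9 genes, and 0% of all genes, with or without the block. With the block, IDO1 was lower in PR2VR by a log2 difference of -0.57 ± 0.25 (adjusted p = 0.73, interval -1.13 to -0.01), in 4 of 4 sets. IL4I1 differed by -0.78 ± 0.26 (adjusted p = 0.72, interval -1.35 to -0.20), also in 4 of 4 sets. WARS1 differed by 0.01 ± 0.17, with an interval of -0.37 to 0.39 and 2 sets in each direction. At an unadjusted p under 0.05 there were 957 genes with the block and 216 without it, beside 698 expected by chance. In the fit without the block, leaving out 1 array moved the difference between the fusions over -0.98 to -0.15 for IDO1 and -1.30 to -0.25 for IL4I1. The value nearest 0 came without PR2VR 6 h number 1 for IDO1 and without PRWT 6 h number 2 for IL4I1.

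**Figure D3:**
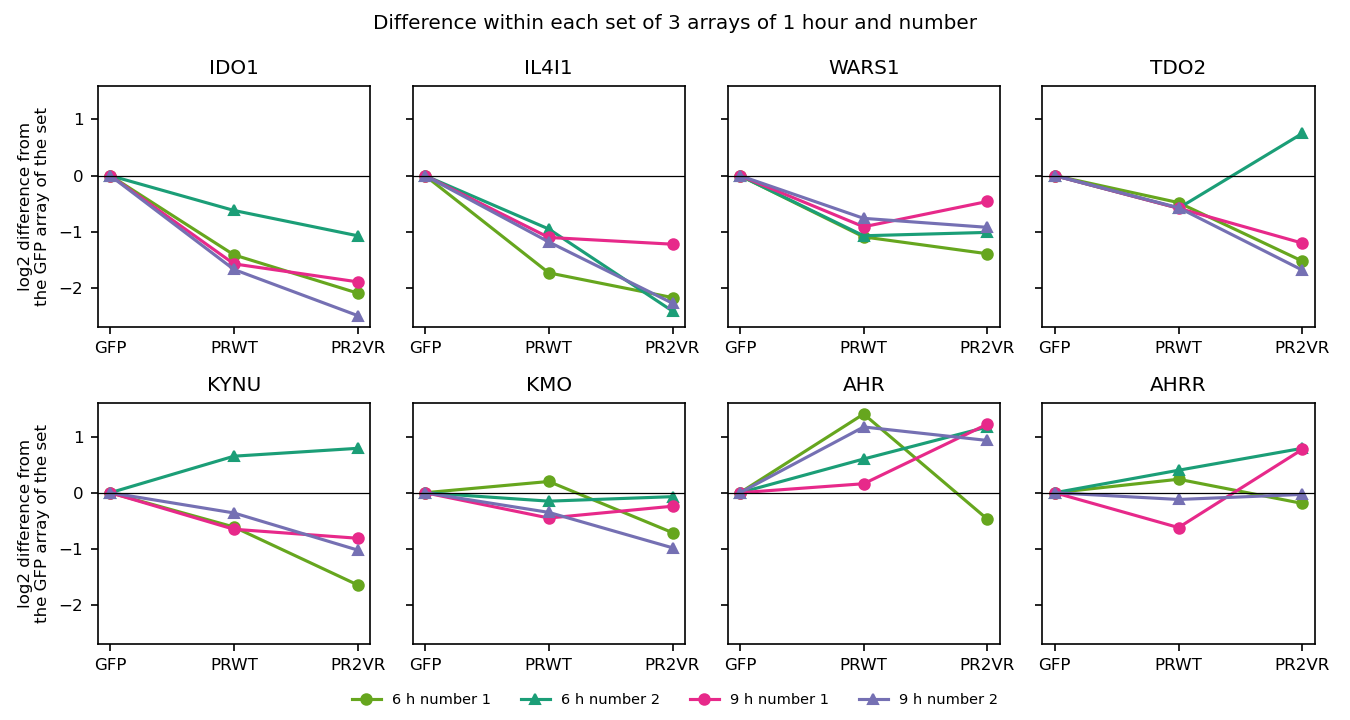
Log2 difference from the GFP array within each set of 3 arrays of 1 hour and number, for 8 of the genes; each line is 1 set, and PRWT and PR2VR are plotted against their own GFP array at 0. All 4 lines fall below 0 for IDO1, IL4I1 and WARS1, and for AHR only the PR2VR point of 6 h number 1 does.

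TDO2 (205943_at), the other ring-opening enzyme, gave 676 and 727 in GFP cells at 6 h and 2018 and 2641 at 9 h. PRWT cells gave 469 and 466 at 6 h and 1333.5 and 1758 at 9 h. PR2VR cells gave 195 and 1265 at 6 h and 842 and 783 at 9 h. The PRWT arrays were lower than their GFP arrays by a steady amount, -0.58 to -0.48 in the 4 sets, while the 6 h PR2VR arrays lay on both sides of GFP. With the block the fusions differed from GFP by -0.73 ± 0.32 (adjusted p = 0.57). At 9 h both PR2VR arrays were below both PRWT arrays, and those below both GFP arrays.

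KYNU (217388_s_at), kynureninase, gave 768 and 416 in GFP cells at 6 h and 1458 and 3582.5 at 9 h. PRWT cells gave 481 and 689.7 at 6 h and 906 and 2779.8 at 9 h, and PR2VR cells 204 and 767 at 6 h and 805 and 1739 at 9 h. The fusion arrays were lower than GFP in 3 sets and higher in the set of 6 h number 2. KMO (205306_x_at), the hydroxylase of kynurenine, gave 635 and 821 in GFP cells at 6 h and 2073.5 and 1278 at 9 h. PRWT cells gave 738 and 735 at 6 h and 1501 and 988 at 9 h, and PR2VR cells 365 and 780 at 6 h and 1745 and 618 at 9 h. KMO groups overlapped at both hours.

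With the block the fusions differed from GFP by -0.45 ± 0.30 for KYNU (adjusted p = 0.74) and by -0.34 ± 0.23 for KMO (adjusted p = 0.75). For both genes, probe sets disagreed in sign: KYNU 210662_at gave 0.35 ± 0.38 and KMO 205307_s_at gave 0.34 ± 0.35. No direction is therefore stated for either gene.

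AHR (202820_at), the ligand-activated receptor itself, gave 2921 and 4733 in GFP cells at 6 h and 2301 and 7093 at 9 h. PRWT cells gave 7829.6 and 7193 at 6 h and 2576 and 15984 at 9 h. PR2VR cells gave 2093 and 10692 at 6 h and 5462 and 13547 at 9 h. The number 2 arrays were the higher of each pair at both hours in GFP and PR2VR cells, and at 9 h in PRWT cells. Averaged over both fusions AHR was above GFP in 4 of 4 sets, and single arrays fell below it once, in PR2VR 6 h number 1. With the block the difference was 0.77 ± 0.31 (adjusted p = 0.50, interval 0.10 to 1.44), and PRWT and PR2VR gave 0.83 ± 0.35 and 0.71 ± 0.35.

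AHRR (229354_at), the AHR repressor, gave 3179 and 3658 in GFP cells at 6 h and 3579 and 3448 at 9 h, the narrowest spread of the 9 genes in GFP cells. PRWT cells gave 3760 and 4849.9 at 6 h and 2315 and 3158 at 9 h, and PR2VR cells 2788 and 6349 at 6 h and 6131 and 3377 at 9 h. The fusion arrays lay on both sides of GFP, and the difference with the block was 0.15 ± 0.22 (adjusted p = 0.91). CYP1B1 (202435_s_at), an AHR-induced cytochrome, had signals near the filter, with 98.2 and 283 in GFP cells at 6 h and 213 and 417.5 at 9 h. PRWT cells gave 55.5 and 162 at 6 h and 335 and 601 at 9 h, and PR2VR cells 206 and 91.5 at 6 h and 138 and 596.5 at 9 h. Its difference was -0.06 ± 0.37 (adjusted p = 0.98), with an interval of -0.87 to 0.75.

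Separation of the arrays was seen at 9 h only. At that hour all 4 fusion arrays were below both GFP arrays for IDO1, IL4I1, WARS1 and TDO2, 4 of the 9 genes, against 6.28% of all genes. At 6 h this held for none of the 9, against 4.27% of all genes, and for none at both hours, against 0.602%. None of the 9 had all fusion arrays above GFP at 6 h or at 9 h, against 4.76% and 5.32% of all genes. The 9 genes were chosen with earlier results of these data known, so these counts are no independent support. The change in the fusion difference from 6 h to 9 h was itself tested. With or without the block 0 genes were called, and the adjusted p was 1 for each of the 9. Unadjusted p was under 0.05 for 434 genes with the block and 106 without it, fewer than the 698 expected by chance.

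On average over the constructs, 8 of the 9 genes were above 0 for 9 h minus 6 h and 1 was below, none of them called. The log2 differences between the hours were 1.56 ± 0.40 for KYNU, 1.44 ± 0.38 for IL4I1, 1.27 ± 0.35 for TDO2, 1.08 ± 0.35 for IDO1, 1.04 ± 0.43 for CYP1B1 and 0.89 ± 0.31 for KMO. WARS1, AHR and AHRR differed by 0.14, 0.25 and -0.16, with errors of 0.33, 0.50 and 0.27. Adjusted p was 0.18 to 0.86 without the block, where 0.0788% of all genes were called, and 0.86 to 0.95 with the set as a random block, where 0% were called. The median over all genes was 0.13. The arrays of 9 h number 2, which differ in their 3′ to 5′ ratios, are part of this comparison. Without them the differences of KYNU, IL4I1, TDO2, IDO1, CYP1B1 and KMO were 0.92, 1.27, 1.16, 0.84, 0.50 and 1.33, each with an adjusted p of 0.90. The size also varied with the probe set, from 0.45 (204385_at) to 1.56 among the 4 of KYNU tested and from 0.53 (205307_s_at) to 1.34 among the 3 of KMO. TDO2 alone of the 9 passed in 1 fit with an array left out, at 1.66 (adjusted p = 0.021) without PR2VR 6 h number 2.

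Genes around the family were read from lists chosen with earlier results known. Of 9 genes for tryptophan uptake and mitochondrial tRNA charging, all tested, 7 were above GFP in the fusions and none was called, with a median of 0.11. The transporter subunit SLC3A2 differed by 0.66 ± 0.22, its partner SLC7A5 by 0.46 ± 0.18, the glutamine carrier SLC1A5 by 0.61 ± 0.26 and SLC7A8 by -0.26 ± 0.24. These values are log2 differences with the block, with adjusted p values of 0.37 to 0.84. Of 15 other enzymes of the kynurenine pathway and of NAD synthesis, 12 were tested, 8 of them below 0, with a median of -0.04 and none called. IDO2, the paralogue of IDO1, differed by -0.74 ± 0.26 (adjusted p = 0.41) and was lower in 4 of 4 sets. NMNAT1, KYAT1 and NADSYN1 differed by -0.49, -0.46 and 0.26. Of 8 genes of the serotonin branch only 3 were tested, with a median of -0.11 and none called.

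The AHR side showed no called gene. Of 6 AHR partners and chaperones 4 were tested, with a median of 0.01. Of 7 further AHR target genes 5 were tested and 4 were above 0, with a median of 0.30. CYP1A1, the best known AHR target, had signals of 313.5 to 2952 on the GFP arrays and 466.5 to 2432 on the fusion arrays, ranges that overlap. It differed by 0.51 ± 0.27 with the block (adjusted p = 0.66). CYP1A2 differed by -0.52 ± 0.24, TIPARP by 0.34 and NFE2L2 by 0.30.

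Of 17 regulators of IDO1, 15 were tested, 11 were below 0 in the fusions and 2 were called lower with the block (0.186% of all genes were), with a median of -0.35. BIN1, a membrane adaptor reported to restrain IDO1, had signals of 8095 to 17450.2 on the GFP arrays and 3499 to 6783 on the fusion arrays, which did not overlap. It differed by -1.47 ± 0.17 (adjusted p = 0.01), and its 5 tested probe sets differed by -1.47 to -1.19. SOCS1, the feedback inhibitor of interferon signalling, had 3765 to 8415 on the GFP arrays and 609 to 2792 on the fusion arrays and differed by -1.84 ± 0.26 (adjusted p = 0.019). Its other probe set gave 0.18 ± 0.28, so its direction rests on 1 probe set. Neither was called without the block (adjusted p 0.31 and 0.37). With the block and 1 array left out, BIN1 stayed called only without a fusion array of 6 h, and SOCS1 only without PRWT 6 h number 2, PRWT 9 h number 2 or either PR2VR 6 h array, 4 of 12 fits each.

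IRF1, the interferon-induced factor that drives IDO1, had 3698 to 14017 on the GFP arrays and 2177 to 7876 on the fusion arrays. It differed by -1.07 ± 0.25 with the block (adjusted p = 0.15) and was lower in 4 of 4 sets. PTGS2, the cyclooxygenase that makes prostaglandins, had 473 to 906 on the GFP arrays and 930.2 to 3179.8 on the fusion arrays and differed by 1.45 ± 0.36 (adjusted p = 0.17). The IRF1 ranges overlapped and the PTGS2 ranges did not, although its highest GFP signal of 906 lay close to its lowest fusion signal of 930.2. The share of all genes whose ranges separate over both hours was not counted. PTGS2 and BIN1 were named by their small p in fusions against GFP, so their separation is no independent support.

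Among 7 genes that report low tryptophan or amino acids, all tested, 5 were above 0 in the fusions, with a median of 0.23 and none called over both fusions. TRIB3, a pseudokinase induced by amino acid shortage, had 3647 to 5823 on the GFP arrays and 6232.5 to 22426 on the fusion arrays. These ranges did not overlap. The share of all genes separating in this way was not counted, and TRIB3 was itself named by its small p in fusions against GFP. It differed by 1.07 ± 0.20 over both fusions (adjusted p = 0.062) and by 1.36 ± 0.23 in PR2VR, where it was called with the block (adjusted p = 0.046) and not without it (adjusted p = 0.52). Called higher in PR2VR with the block were 0.15% of all genes. The TRIB3 call was kept without any 1 of the 4 fusion arrays of 6 h and lost without any other array. Its other probe set gave -0.42 ± 0.56 in PR2VR, so its direction rests on 1 probe set. ATF4, the transcription factor of this response, differed by 0.65 ± 0.13 (adjusted p = 0.09), ASNS by 0.39 and DDIT3 by 0.23.

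**Figure D4:**
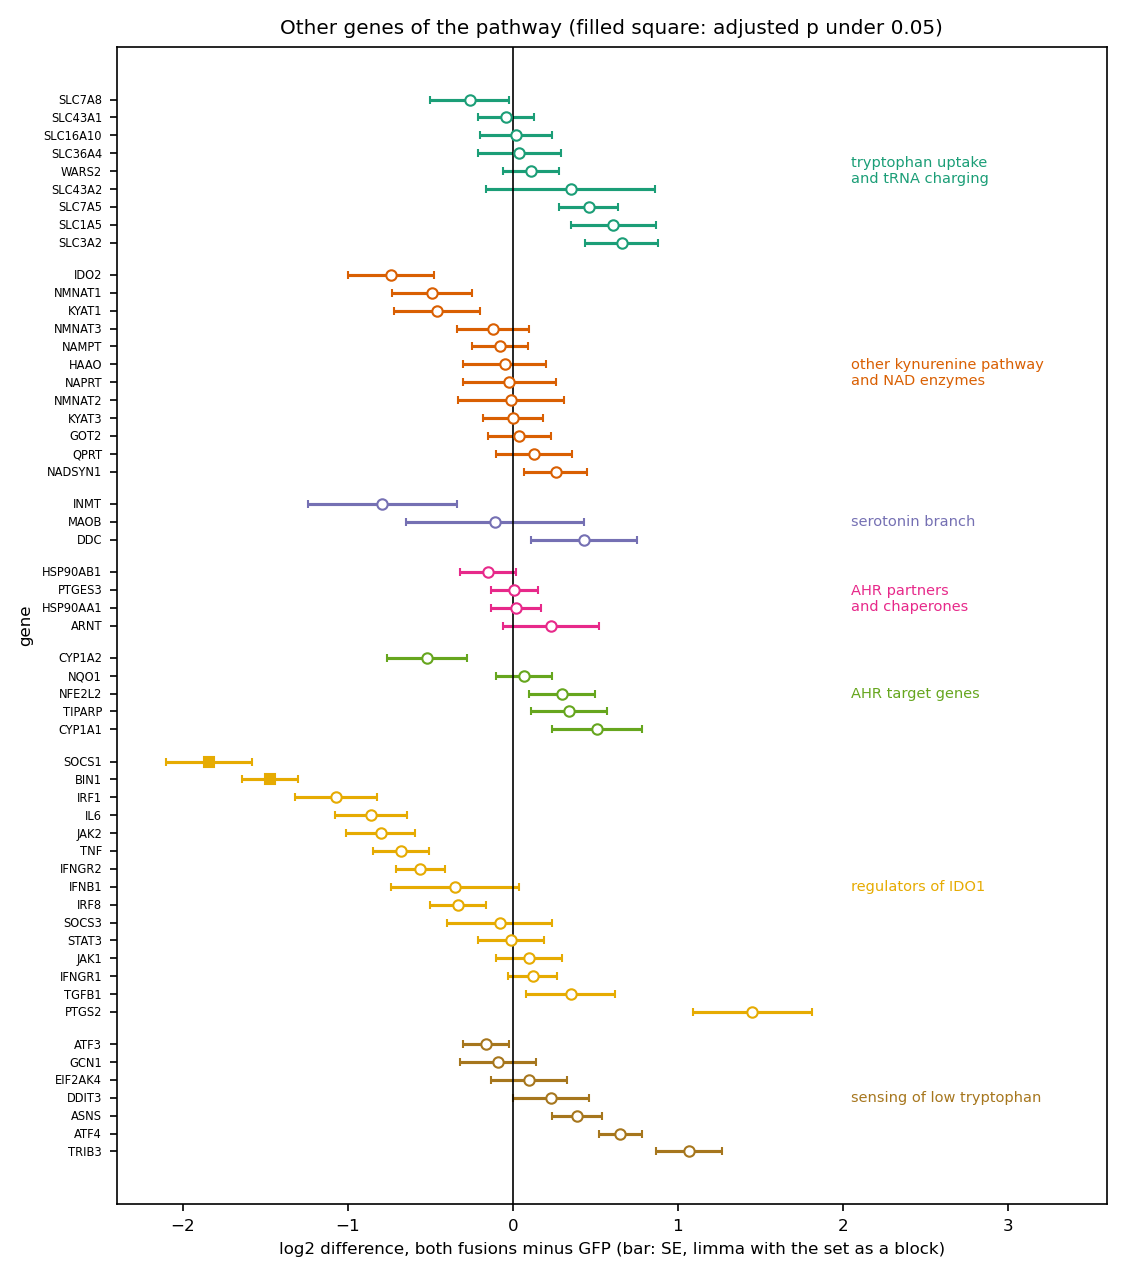
Log2 difference of both fusions from GFP for every tested gene of the 7 surrounding lists (8 fusion and 4 GFP arrays, limma with the set as a block); bars are 1 SE and filled squares have an adjusted p under 0.05. SOCS1 and BIN1 are the filled squares, and PTGS2 and TRIB3 lie farthest to the right.

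The genes with the most similar pattern were found by Pearson's r of deviations from the mean of each set, over the 12 arrays, which share the construct difference and the array. For IDO1 these were NEURL3 (0.978), APOL2 (0.973) and TMEM144 (0.964), and for IL4I1 they were C3 (0.982), OAS3 (0.975) and MELTF (0.967). For WARS1 they were SLC23A2 (0.958), MDGA1 (0.955) and NMRAL2P (0.952). Within the family, r was 0.92 for IDO1 with IL4I1, 0.88 for IL4I1 with WARS1 and 0.87 for IDO1 with WARS1. KYNU and TDO2 gave 0.83, and AHRR and CYP1B1 gave -0.85. Some of these values changed when the set means were not taken off. On that scale r with IL4I1 was 0.949 for C3, 0.788 for OAS3 and -0.13 for MELTF, and AHRR and CYP1B1 gave -0.48.

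Markers of other cells were read beside these results, since IDO1, IL4I1 and KYNU are also made by mature dendritic cells. The summed signal of 5 dendritic cell markers was 9878 to 16282 on the GFP arrays, 6882 to 14652 on the PRWT arrays and 6338.5 to 19637 on the PR2VR arrays, ranges that overlap. CD83 made up most of that sum, with 5040 to 18282 over the 12 arrays. Of the 4 dendritic markers tested, 2 were below 0 and 2 above 0 in the fusions, with a median of -0.10. CCR7, named after its values were seen and the only one of the 4 called, had 727.5 to 1846 on the GFP arrays and 187 to 666 on the fusion arrays and was called lower with the block, by -1.30 ± 0.22 (adjusted p = 0.044), a call that was kept with 1 array left out only without either PR2VR 6 h array. CD83 differed by -0.33 ± 0.16, CD1C by 0.13 ± 0.49 and FSCN1 by 0.44 ± 0.43, none of them called. The summed signal of 5 macrophage markers was 1004 to 3987 on the GFP arrays and 983 to 3633 on the fusion arrays. CD14 had at most 350.3 on any array. Of the 5 markers 2 passed the filter, MARCO with 159.6 to 3626.9 and CD163 with 78.2 to 570.1 over the 12 arrays. All 4 B cell markers tested were below 0 in the fusions, with a median of -0.17 and none called. Their summed signal was 3662 to 17696 on the GFP arrays, 4310 to 11492 on PRWT and 4864 to 6880 on PR2VR arrays. Among them PAX5 had 2166.5 to 16215.1 over the 12 arrays. The lists for T cells, erythroid cells, and epithelium and fibroblasts held no called gene. The part of such cells, or of maturation, in the IDO1, IL4I1 and WARS1 differences was not tested.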

How the data were processed

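Total RNA of GFP-sorted U937 cells was measured on 12 Affymetrix arrays, with 2 for each of 6 groups of construct and hour, taken from the sample titles. The deposited intensity values are MAS5 signals, made by the authors per the submitters' processing notes, with no version stated.

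Of 54675 probe sets, 62 are controls and 41091 carry 1 symbol in the platform annotation. An offset of 62.5, the 20th percentile of all signals, was added before log2, and genes were tested above the 40th percentile. limma 3.58.1 (R 4.3.3) was fitted to all 12 arrays with 1 mean per group and a variance trend, and was tested on simulated data. The precision is limited by 2 arrays per group, and all counting of calls uses adjusted p under 0.05.

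Same-numbered arrays deviated together at 9 h (r = 0.60, 0.63 and 0.56) and only weakly at 6 h (r = 0.36, 0.15 and 0.21). Same-numbered arrays of different hours gave r of -0.022 to 0.19, a range that the 6 h values overlap. The pairing was taken from the data, which separate it from the values between hours at 9 h but not fully at 6 h. The set of hour and number was used as a block beside the unblocked fit, which was the main design. Alternatives were the block, another offset, no filter, quantile normalization, no variance trend, every probe set, and leaving out each array or the 3 arrays of 9 h number 2. Alternatives to the blocked fit were added after the data were seen.

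The members and lists were chosen with earlier results of these data known. Besides the 9 genes, up to 4 genes per list were named, by the smallest p in fusions against GFP, plus those called, and the 3 genes most like a member. CD14, MARCO, CD163, SPI1, MPO, ITGAX, IFNG, IFNB1, PAX5 and the dendritic markers were named after their values were seen. Promoters are RefSeq's, on GRCh38.p14. Protein sequences were not used here.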

Additional observations from a re-analysis of the deposited data

Results flagged for a closer look

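The IDO1 signal of 217.1 on PR2VR 6 h number 1 lay far below the other 3 PR2VR arrays, at 816.4 to 884.5. The gap was 0.939 of the range of the 4 arrays, above Dixon's critical value for 4 samples. Chance flags about 1 in 20 groups of like samples, and 27 groups of a gene and construct were tried. Each such group joins 2 arrays of 6 h with 2 of 9 h, so that rate is only nominal. The same array gave the lowest signal of the 12 arrays for IDO1, IL4I1, KYNU, KMO, WARS1, TDO2 and AHR, but not for AHRR or CYP1B1. It enters their PR2VR and 6 h differences and the correlations among them. Without that array the blocked difference of both fusions from GFP was -1.52 for IDO1 (adjusted p = 0.0055).

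Bacterial control probe sets LysX, PheX, ThrX and TrpnX, which no comparison used, had a median signal of 13032.4 on the 3 arrays of 9 h number 2 and 39.5 on the other 9 arrays. The DapX probe sets had a median of 79.4 over all arrays. The 9 h values of every gene above include these 3 arrays.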

How the results depend on the processing

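Without the set as a replicate block, 1 call of a member was made in the fits run, TDO2 for 9 h against 6 h without PR2VR 6 h number 2. The block raised the calls of fusions against GFP from 1 to 44 and of PR2VR against GFP from 1 to 41, and took those of 9 h against 6 h from 11 to 0. The same block left the count at 1 for PRWT against GFP. Testing all probe sets gave 5 calls for both fusions, 3 for PRWT, 2 for PR2VR and 2 for both fusions at 9 h. For 9 h against 6 h, quantile normalization gave 3 calls, no variance trend 2 and leaving out 9 h number 2 gave 0, which also left 0 for both fusions at 9 h. With the block, no variance trend and leaving out 9 h number 2 each left 1 call for both fusions and 1 for PR2VR. Without the trend, the adjusted p of IDO1, IL4I1 and WARS1 became 0.083, 0.096 and 0.16. The cause of these shifts was not tested.

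Leaving out 1 array gave 0 to 53 calls for 9 h against 6 h, 1 to 9 for PR2VR against GFP, 0 to 2 for PR2VR against PRWT, and with the block 1 to 360 for both fusions and 1 to 739 for PR2VR against GFP. IDO1, IL4I1 and WARS1 kept their direction against GFP in every fit run. Values that changed sign with 1 array left out ranged as follows. For 9 h against 6 h they were -0.18 to 0.68 (AHR), -0.36 to 0.03 (AHRR) and -0.12 to 0.41 (WARS1). For both fusions against GFP they were -0.34 to 0.21 (CYP1B1), -0.02 to 1.04 (CYP1A1) and -0.02 to 0.48 (DDIT3). For PRWT against GFP they were -0.13 to 0.08 (AHRR), -0.29 to 0.26 (CYP1B1) and -0.63 to 0.15 (KYNU), and for PR2VR against GFP -0.54 to 0.32 (CYP1B1). For PR2VR against PRWT they were -0.77 to 0.53 (AHR), -0.52 to 0.34 (CYP1B1), -0.66 to 0.04 (KMO), -0.95 to 0.23 (TDO2) and -0.39 to 0.41 (WARS1). For the fusion difference at 9 h against 6 h they were -0.29 to 1.03 (IL4I1) and -0.22 to 0.98 (WARS1).

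Without 9 h number 2, AHR turned to -0.67 for 9 h against 6 h and to 0.21 for PR2VR against PRWT, and DDIT3 to -0.05. CYP1B1 in PRWT turned to 0.03 with a larger offset and to 0.01 after quantile normalization. Other probe sets turned signs for fusions against GFP in KMO (0.34), KYNU (0.35), NADSYN1 (-0.07), SLC7A8 (0.38 and 0.25), SOCS1 (0.18) and TRIB3 (-0.03). They did so for PR2VR against GFP in KMO (0.45), KYNU (0.61), SOCS1 (0.04) and TRIB3 (-0.42), for PRWT against GFP in KMO (0.23 and 0.15) and KYNU (0.05 and 0.08), and for PR2VR against PRWT in KMO (0.22) and KYNU (0.52). Signal near the filter limits CYP1B1 most.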
